A study of Rattus norvegicus with 12 samples.

Results

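Conjugating enzymes join a small polar group to hormones, bile acids, drugs and reactive products of metabolism, so that these can leave the liver in bile or urine. The set described here took every array probe whose gene symbol begins with Ugt1, Ugt2, Sult, Gsta, Gstm, Gstp, Gstt, Gsto, Gstk, Gstz or Mgst, apart from Ugt1a1, Ugt1a6 and Sult1a1. It held 38 of the 13327 genes with a symbol on the array, measured by 42 of its 22505 probes. There were 10 probes of UDP-glucuronosyltransferases (UGT, 9 genes), 8 of sulphotransferases (SULT, 7 genes), 22 of soluble glutathione S-transferases (GST, 20 genes) and 2 of membrane-bound microsomal GSTs (MGST, 2 genes). No probe carried a Gstz symbol.

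Expression in individual livers of male Wistar rat pups was assessed on the Illumina RatRef-12 BeadChip 1 day after birth, with n = 4 in each of 3 groups. The dams were fed synthetic casein diets through pregnancy. Group C had the control diet, group MLP a maternal low protein diet with less casein and the control amount of folate, and group MLP-F the low protein diet with added folic acid. Comparing MLP with C asks what protein restriction of the dam does to the liver at birth, and the contrasts that use MLP-F ask how this stands when folate is added. No group had the control protein level with added folate. Per the methods of the study each diet was given to a single litter, so the 4 pups of a group were littermates. Diet and litter cannot be told apart, and the p-values below measure the spread among pups only.

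UGTs sit in the membrane of the endoplasmic reticulum and transfer glucuronic acid from UDP-glucuronate. SULTs are soluble enzymes that transfer sulphate from the donor PAPS to hydroxyl groups of steroids, thyroid hormones and phenols. GSTs add the tripeptide glutathione to electrophiles, such as epoxides and products of lipid peroxidation, and several of their genes are induced by the transcription factor NRF2. In the rat many of these enzymes are low in the fetal liver and increase around and after birth.

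Levels and differences are given on a re-expanded log2 scale, 2 to the power of the deposited value minus 16, a reading inferred from the numbers themselves since the sources do not state it. If that reading holds, a difference on this scale is about a log2 ratio of intensity and understates the change of dim probes. Probes differ in how brightly they hybridise, so levels were compared between groups of pups and never between genes. Of the 42 probes, 38 (36 genes) had a mean above the 30th percentile of all probes and were tested. The 4 that did not pass were those of Gsta1 and Ugt2b7 and 1 probe each of Gstp1 and Sult2b1, whose values ran from 0.057 to 0.23 over the 12 livers. Among the 38 tested probes 15 had a mean under 0.5, 7 a mean from 0.5 to 2 and 16 a mean of at least 2, on an array where 86.5% of all probes were dimmer than 2. Within a group the livers correlated across all probes with r from 0.977 to 0.993.

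Liver identity was clear in every library, with a median of the 6 hepatocyte marker probes from 7.16 to 7.64. The probe of Apob, on the same list, was dim in every library (0.075 to 0.22) and was not tested. A pair of C libraries also held transcripts of other tissues. In C replicate 4 the skeletal muscle markers had a median of 4.91, against at most 0.32 outside C replicates 1 and 4, and the lung markers one of 1.71, against at most 0.23. In C replicate 1 the keratinocyte markers had a median of 2.36, against at most 0.17, and the smooth muscle markers one of 3.68, against at most 0.84. The stellate cell and fibroblast markers stood at 4.30 in C replicate 1 and 2.24 in C replicate 4, against at most 1.86 elsewhere. What part these transcripts had in the values of the conjugating enzymes was not tested. Each call of these enzymes and of their partner genes against C is therefore given with and without both libraries. The calls of cell type markers below include both libraries.

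Some markers of hepatocytes and of other cell types also differed between the diet groups. Of 6 erythroid probes, whose median was 5.69 to 5.82 in C, 5.13 to 5.53 in MLP and 5.17 to 5.68 in MLP-F, Alas2 was called higher in MLP than in C (0.34, adjusted p = 0.0204 by limma) and than in MLP-F (0.33, adjusted p = 0.0164), and Ahsp lower (-0.51, adjusted p = 0.0213, and -0.46, adjusted p = 0.0268). Of 5 macrophage probes, with medians of 2.86 to 3.17 in C, 3.07 to 3.49 in MLP and 2.91 to 3.16 in MLP-F, C1qc was called higher in MLP than in C (0.51, adjusted p = 0.0301), and C1qc and C1qb higher than in MLP-F (0.75, adjusted p = 0.00396, and 0.60, adjusted p = 0.0365). The 6 hepatocyte probes had medians of 7.16 to 7.64 in C, 7.27 to 7.46 in MLP and 7.51 to 7.61 in MLP-F. Of the 5 that were tested, Cps1 was called higher in MLP than in MLP-F (1.40, adjusted p = 0.0195). Of 4 intestine probes, with medians of 0.21 to 0.24 in C, 0.21 to 0.55 in MLP and 0.19 to 0.40 in MLP-F, Fabp2 was called lower in MLP than in C (-1.51, adjusted p = 0.0180) and than in MLP-F (-1.68, adjusted p = 0.00856). None of 4 cholangiocyte probes was called by limma (in MLP vs C, 1 had an unadjusted p under 0.05), and no probe of the 5 lists was called in MLP-F vs C (2 hepatocyte, 3 erythroid and 1 macrophage probe at an unadjusted p under 0.05). The part of these differences in the results on the conjugating enzymes was not tested. In bulk tissue, fewer cells of a type and less RNA per cell cannot be told apart.

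Differential expression was tested with limma in a single fit to the 12 livers, with p-values adjusted by the Benjamini-Hochberg method over all 15753 tested probes and a call made at an adjusted p under 0.05. In MLP vs C 3 of the 38 conjugating enzyme probes were differentially expressed (7.89%), against 4.35% of all probes. Gstm7 and Gsta3 were higher in MLP and Sult2a6 was lower, where 2.27% of all probes were called higher and 2.08% lower. In MLP-F vs C 1 probe was called (2.63%), against 0.482% of all probes. This was Gstm2, lower in MLP-F, as were 0.292% of all probes. In MLP vs MLP-F 7 of 38 were called (18.4%), against 6.58% of all probes. Gstm1, Gstm2, Gstm4, Gstm7, Mgst2 and Ugt1a7c were higher in MLP than in MLP-F, and Sult2a6 was lower, where 3.53% of all probes were called higher and 3.05% lower. The 3 comparisons share samples and are not independent of each other.

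In all 8 probes (21.1% of 38) were called in at least 1 comparison. None of the 15 probes with a mean under 0.5 was among them, and 4 of the 16 with a mean of at least 2 were. The matching shares over all probes were not counted, so these counts cannot be set against the array. With the filter at the 50th percentile, 7.48% of the 11252 probes then tested were called in MLP vs C and 10.8% in MLP vs MLP-F. The fit and the adjustment were rerun on these probes. These shares therefore do not show how often brighter probes were called under the filter at the 30th percentile. Counted without a model, the 4 values of each group did not overlap for 8 probes (21.1%) in MLP vs C, where 12.2% of all probes did not overlap. The corresponding counts were 4 (10.5%, against 6.27% of all probes) in MLP-F vs C and 7 (18.4%, against 12% of all probes) in MLP vs MLP-F. The median difference of the 38 probes was 0.039 in MLP vs C, -0.016 in MLP-F vs C and 0.080 in MLP vs MLP-F, beside 0.0037, 0.0044 and -0.0012 over all probes. At an unadjusted p under 0.05 the counts were 10 (26.3%), 11 (28.9%) and 13 (34.2%) of 38, beside 17.3%, 14.9% and 19.5% of all probes.

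**Figure D1:**
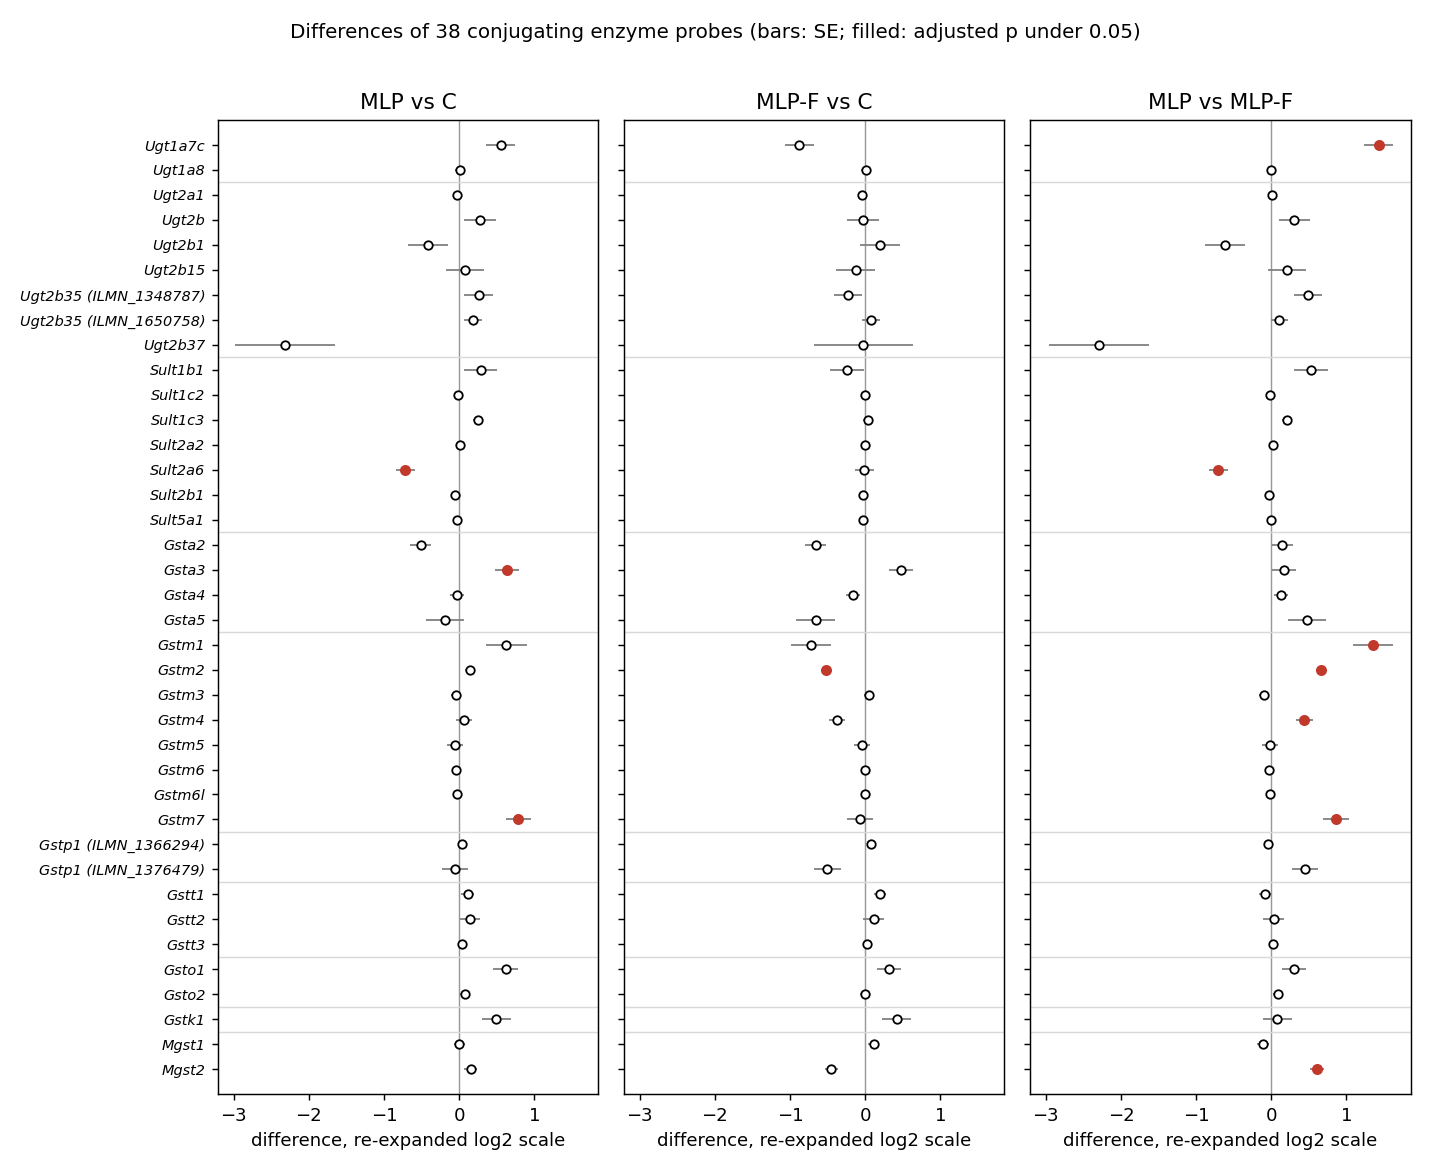
Difference of each of the 38 tested conjugating enzyme probes for MLP against C (left), MLP-F against C (middle) and MLP against MLP-F (right), on the re-expanded log2 scale, with bars for the standard error and filled points for an adjusted p under 0.05. The probes are grouped by family. Of the 3, 1 and 7 filled points, 1, 1 and 4 are GST mu probes, and Ugt2b37 has the widest bars.

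GST mu genes made up 4 of the 8 probes called in any comparison. Of 8 mu probes tested, these 4 were higher in MLP than in MLP-F, where 3.53% of all probes were called higher. Among the 4, Gstm7 was also higher in MLP than in C, where 2.27% of all probes were called higher. Gstm2 was also lower in MLP-F than in C, where 0.292% of all probes were called lower. Mu enzymes form dimers in the cytosol and conjugate aryl halides and epoxides, and in the rat Gstm1 and Gstm2 encode the subunits long known as Yb1 and Yb2. The 8 genes lie in a single cluster on rat chromosome 2, in the RefSeq order Gstm5, Gstm6l, Gstm7, Gstm6, Gstm3, Gstm2, Gstm1 and Gstm4.

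Gstm2 had the smallest adjusted p of the 38 probes. Its levels were 0.98, 0.87, 0.73 and 0.99 in C replicates 1 to 4, 0.97, 1.14, 0.99 and 1.06 in MLP, and 0.34, 0.48, 0.38 and 0.30 in MLP-F. All 4 MLP-F livers lay below every liver of both other groups. The mean was 0.38 ± 0.08 in MLP-F, against 1.04 ± 0.077 in MLP and 0.89 ± 0.12 in C (SD, n = 4 each). The difference was 0.66 between MLP and MLP-F (SE 0.066, adjusted p = 0.000497 by limma) and -0.52 between MLP-F and C (SE 0.066, adjusted p = 0.0158). Between MLP and C it was 0.14 (95% confidence interval -0.0004 to 0.29, adjusted p = 0.290), and the groups overlapped. The call in MLP-F vs C was lost without C replicates 1 and 4 (difference -0.43, adjusted p = 0.0723) and without MLP-F replicate 3 (-0.52, adjusted p = 0.0595), while the call in MLP vs MLP-F held in each of the 12 fits that left out 1 liver.

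Gstm1, the brightest of the mu probes, had levels of 4.60, 4.54, 4.87 and 5.58 in C, 5.81, 5.36, 5.37 and 5.56 in MLP, and 3.74, 4.20, 4.88 and 3.88 in MLP-F. The MLP livers lay above all MLP-F livers, while C overlapped with both groups. C replicate 4, which held muscle and lung transcripts, had the highest C value. The difference between MLP and MLP-F was 1.35 (SE 0.27, adjusted p = 0.0135 by limma), and the call held in each fit that left out 1 liver. Neither group differed from C past the threshold, with 0.63 for MLP (95% confidence interval 0.042 to 1.22, adjusted p = 0.249) and -0.72 for MLP-F (-1.31 to -0.13, adjusted p = 0.224).

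Gstm4, next to Gstm1, had levels of 0.77, 0.97, 1.03 and 0.92 in C, 1.26, 1.00, 0.82 and 0.86 in MLP, and 0.59, 0.79, 0.39 and 0.41 in MLP-F. The MLP-F values lay below those of MLP and met those of C at the edge, with 0.79 in MLP-F replicate 2 above 0.77 in C replicate 1. The difference between MLP and MLP-F was 0.44 (SE 0.11, adjusted p = 0.0372 by limma). This call was a close one. It was kept in 4 of the 12 fits that left out 1 liver and lost without C replicate 2 or 4, MLP replicate 1, 2 or 4, or MLP-F replicate 1, 3 or 4, with adjusted p from 0.0518 to 0.105. It was also lost without C replicates 1 and 4 together (0.44, adjusted p = 0.0509). Against C the difference was 0.066 for MLP (adjusted p = 0.844) and -0.38 for MLP-F (adjusted p = 0.142), the latter called without MLP-F replicate 2 (-0.46, adjusted p = 0.0336).

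Gstm7 had another pattern, with MLP apart from both other groups. Its levels were 0.53, 0.73, 0.89 and 1.05 in C, 1.95, 1.41, 1.72 and 1.27 in MLP, and 1.02, 0.62, 0.87 and 0.42 in MLP-F. Every MLP liver lay above every liver of C and MLP-F, which overlapped with each other. The mean of 1.59 ± 0.31 in MLP exceeded that of C by 0.79 (SE 0.17, adjusted p = 0.0259 by limma) and that of MLP-F by 0.86 (SE 0.17, adjusted p = 0.0135). MLP-F and C differed by -0.067 (95% confidence interval -0.44 to 0.31, adjusted p = 0.900). The call against C was lost without C replicate 1 (0.70, adjusted p = 0.0709), C replicate 2 (0.76, 0.0637), MLP replicate 1 (0.67, 0.0608) or MLP replicate 3 (0.75, 0.0756), and without C replicates 1 and 4 together (0.78, adjusted p = 0.102). The call against MLP-F held in all 12 fits.

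The other mu probes, those of Gstm3, Gstm5, Gstm6 and Gstm6l, were dim, with group means from 0.14 to 0.49, and none was called in any comparison. Their differences ran from -0.092 to 0.048, and those between MLP and MLP-F all lay below 0. Gstm3 lies directly beside Gstm2, and its group means of 0.36, 0.32 and 0.41 in C, MLP and MLP-F were highest in MLP-F, with a difference of -0.092 between MLP and MLP-F (adjusted p = 0.537 by limma). At these levels the scale compresses differences, so a change in these genes may not have been detectable. Mu genes are close relatives and the probe sequences were not used here, so signal shared between them was not tested.

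**Figure D2:**
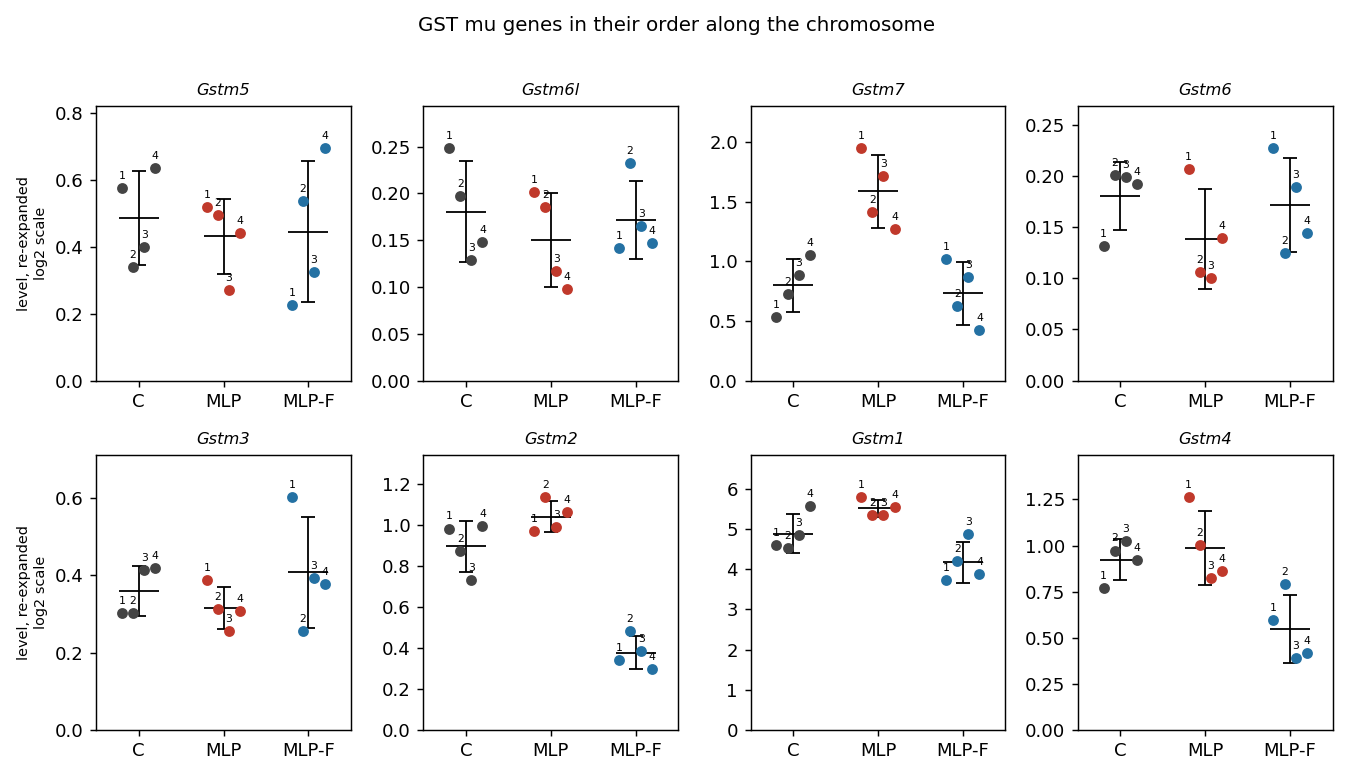
Level of each GST mu probe in the 12 livers, on the re-expanded log2 scale, with genes in their order along the chromosome; points are single livers numbered by replicate, and bars give the mean and SD of each group (n = 4). For Gstm2 the 4 MLP-F livers lie between 0.30 and 0.48, below all others, and for Gstm7 the 4 MLP livers lie between 1.27 and 1.95, above all others.

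The start regions of the 4 called mu genes are shown. These genes were picked for their calls, all higher in MLP than in MLP-F. The differences of the 4 other tested mu probes, all dim, lay below 0 in this comparison, so the cluster did not share a direction. Each sequence is the 250 bases before the start site in RefSeq (GRCr8, all on the minus strand), at chr2:198316918-198317167 for Gstm2, chr2:198343384-198343633 for Gstm1, chr2:198373384-198373633 for Gstm4 and chr2:198260320-198260569 for Gstm7, and is read 5′ to 3′. Capitals mark matches to the antioxidant response element core TGACNNNGC, the sequence bound by NRF2, to the TATA box TATAAA, to the GC box GGGCGG or to the C/EBP core TTGCNNAA, searched on both strands.
Gstm2: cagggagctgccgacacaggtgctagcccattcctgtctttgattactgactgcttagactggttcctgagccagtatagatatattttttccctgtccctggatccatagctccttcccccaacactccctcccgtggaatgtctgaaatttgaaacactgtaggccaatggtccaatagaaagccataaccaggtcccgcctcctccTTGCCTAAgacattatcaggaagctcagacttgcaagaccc
Gstm1: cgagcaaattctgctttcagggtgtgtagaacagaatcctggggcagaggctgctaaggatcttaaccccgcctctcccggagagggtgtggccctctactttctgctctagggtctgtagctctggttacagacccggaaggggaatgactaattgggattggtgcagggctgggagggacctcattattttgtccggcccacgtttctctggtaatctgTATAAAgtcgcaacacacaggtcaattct
Gstm4: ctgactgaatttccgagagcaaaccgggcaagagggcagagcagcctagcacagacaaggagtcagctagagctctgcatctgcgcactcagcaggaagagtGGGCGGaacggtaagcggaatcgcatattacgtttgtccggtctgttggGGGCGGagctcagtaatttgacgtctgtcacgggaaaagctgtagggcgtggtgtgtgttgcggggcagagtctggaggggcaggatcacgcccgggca
Gstm7: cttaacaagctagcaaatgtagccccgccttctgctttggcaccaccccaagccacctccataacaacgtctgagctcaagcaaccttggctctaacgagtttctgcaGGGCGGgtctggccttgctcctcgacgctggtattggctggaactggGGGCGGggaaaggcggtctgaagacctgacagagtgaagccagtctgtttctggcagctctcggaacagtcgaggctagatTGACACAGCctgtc

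The marked letters differ from gene to gene. Gstm2 had a C/EBP core 41 bases before its start, Gstm1 a TATA box 29 bases before, Gstm4 a pair of GC boxes, and Gstm7 a pair of GC boxes and an antioxidant response element core 14 bases before its start. Aligned end to end, the windows of Gstm1, Gstm2 and Gstm4 were 42.7% to 48.2% identical and that of Gstm7 46% to 49.4% identical to these. The closest pair of mu windows was that of Gstm1 and Gstm3 (54.2%), and Gstm3 was not called. Unrelated windows were not aligned, and a link between start regions and levels was not tested. Windows were found for 33 of the 38 genes, and the first listed window of each gene was used. Gsta3 and Gsto2 had another listed window that was not searched. The antioxidant response element core was present in 4 of the 33 windows (those of Gstm5, Gstm7, Gsta3 and Gstp1, 12.1%), against 10.2% of all RefSeq windows of the same length. GC boxes were present in 30.3% of the windows, against 32.4% of all, TATA boxes in 21.2%, against 13.1%, and C/EBP cores in 24.2%, against 9.2%. The last group took in 4 of the Ugt2b genes, which resemble each other. A match is a description of the letters in this window and nothing more.

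Of the microsomal GSTs, which sit in membranes and are unrelated in structure to the soluble enzymes, Mgst2 was called and Mgst1 was not. Mgst2 can conjugate glutathione to leukotriene A4 and reduces lipid hydroperoxides. Its levels were 4.39, 4.48, 4.26 and 4.45 in C, 4.64, 4.44, 4.61 and 4.51 in MLP, and 3.88, 4.22, 3.84 and 3.84 in MLP-F. All MLP-F livers lay below all livers of both other groups, with MLP-F replicate 2 the closest. The mean was 3.94 ± 0.18 in MLP-F and 4.55 ± 0.095 in MLP, a difference of 0.61 (SE 0.088, adjusted p = 0.00309 by limma) that was called in every fit leaving out 1 liver. MLP-F stood 0.45 below C (difference -0.45, SE 0.088), just short of the threshold (adjusted p = 0.0552), and was called when MLP-F replicate 2 was left out (-0.54, adjusted p = 0.00359). MLP and C differed by 0.16 (95% confidence interval -0.036 to 0.35, adjusted p = 0.413).

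Mgst1, the abundant microsomal GST of hepatocytes, which also sits in the outer mitochondrial membrane, was among the brightest probes of the array, with 99.7% of all probes dimmer. Its levels lay between 7.24 and 7.60 in all 12 livers. The groups overlapped, and MLP and C differed by 0.0012 (95% confidence interval -0.16 to 0.17, adjusted p = 0.997). The other differences were 0.11 for MLP-F vs C (-0.053 to 0.28, adjusted p = 0.534) and -0.11 for MLP vs MLP-F (-0.28 to 0.054, adjusted p = 0.497).

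Among 9 UGT probes, Ugt1a7c was the only call, higher in MLP than in MLP-F. The Ugt1a genes share their downstream exons and differ in the first exon, and in the rat Ugt1a7c encodes a form that glucuronidates planar phenols. Since exons are shared and the probe position was not given, signal from other Ugt1a transcripts cannot be set apart. The levels of Ugt1a7c were 2.60, 2.25, 2.07 and 2.63 in C, 2.86, 2.73, 3.07 and 3.09 in MLP, and 1.05, 2.01, 1.64 and 1.33 in MLP-F. The 3 groups did not overlap, with MLP on top, C between and MLP-F lowest. The mean of 2.94 ± 0.17 in MLP was 1.43 above that of MLP-F, 1.51 ± 0.41 (SE 0.19, adjusted p = 0.00226 by limma), and this call held in all 12 fits leaving out 1 liver.

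Against C, Ugt1a7c was 0.55 higher in MLP (95% confidence interval 0.13 to 0.98, adjusted p = 0.154) and differed by -0.88 in MLP-F (-1.30 to -0.45, adjusted p = 0.0783). Neither passed the threshold. The highest C values were in C replicates 1 and 4, which held transcripts of other tissues. Without MLP-F replicate 2 the difference between MLP-F and C was called (-1.05, adjusted p = 0.00941). Without C replicates 1 and 4 and MLP-F replicate 2, the difference between MLP and C was called (0.78, adjusted p = 0.0474) and that between MLP-F and C was not. Ugt1a8, beside it on the chromosome, was dim, with group means of 0.26 to 0.27, and was not called.

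The Ugt2b enzymes glucuronidate steroids and bile acids among others, and 6 of the 7 tested UGT2 probes belonged to them. None of the 7 was called. Ugt2b37 had the largest differences of the whole set. Its levels were 3.99, 5.18, 3.82 and 4.89 in C and 3.75, 4.28, 5.16 and 4.60 in MLP-F, while MLP held 4.50, 1.58, 1.24 and 1.29. MLP replicates 2, 3 and 4 lay far below every other liver, and MLP replicate 1 lay within the range of C and MLP-F. The difference was -2.32 between MLP and C (SE 0.66, adjusted p = 0.0776 by limma) and -2.29 between MLP and MLP-F (SE 0.66, adjusted p = 0.0653). Without MLP replicate 1 these became -3.10 (adjusted p = 0.00447) and -3.08 (adjusted p = 0.00285). MLP-F and C differed by -0.023, with a wide interval of -1.47 to 1.43.

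Neither Ugt2b15 nor Ugt2b35, which lie in the same cluster, was low in these 3 livers. Ugt2b genes resemble each other and the probe sequences were not used here, so signal shared between their probes was not tested. Ugt2b15, for which human UGT2B15 is known to conjugate androgens, had levels of 4.98, 5.05, 4.28 and 4.27 in C, 4.63, 4.83, 4.74 and 4.69 in MLP, and 4.38, 4.72, 5.12 and 3.85 in MLP-F. The groups overlapped, with a difference of 0.078 between MLP and C (95% confidence interval -0.48 to 0.64, adjusted p = 0.928). Both probes of Ugt2b35, the gene directly after Ugt2b37, gave overlapping groups as well. The brighter had means of 5.85 ± 0.24, 6.03 ± 0.15 and 5.92 ± 0.13 in C, MLP and MLP-F, and the dimmer 4.29 ± 0.37, 4.55 ± 0.25 and 4.07 ± 0.24. Their differences between MLP and C were 0.18 and 0.26 (adjusted p = 0.483 and 0.558).

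Ugt2b1, a rat enzyme that conjugates testosterone and morphine, had levels of 4.53, 5.10, 4.53 and 4.97 in C, 4.65, 4.00, 4.50 and 4.33 in MLP, and 4.15, 5.22, 5.55 and 5.01 in MLP-F. MLP overlapped with both groups, and the difference was -0.41 against C (adjusted p = 0.489) and -0.61 against MLP-F (adjusted p = 0.227), the latter called without MLP-F replicate 1 (adjusted p = 0.0328). Ugt2b had group means of 2.68, 2.96 and 2.66 and was not called. Within C, replicates 1 and 2 lay above replicates 3 and 4 for Ugt2b15, Ugt2b and both Ugt2b35 probes, a split that differs from that of the libraries with foreign transcripts. Ugt2a1, known from the olfactory epithelium, was dim, at 0.12 to 0.34 in all livers.

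**Figure D3:**
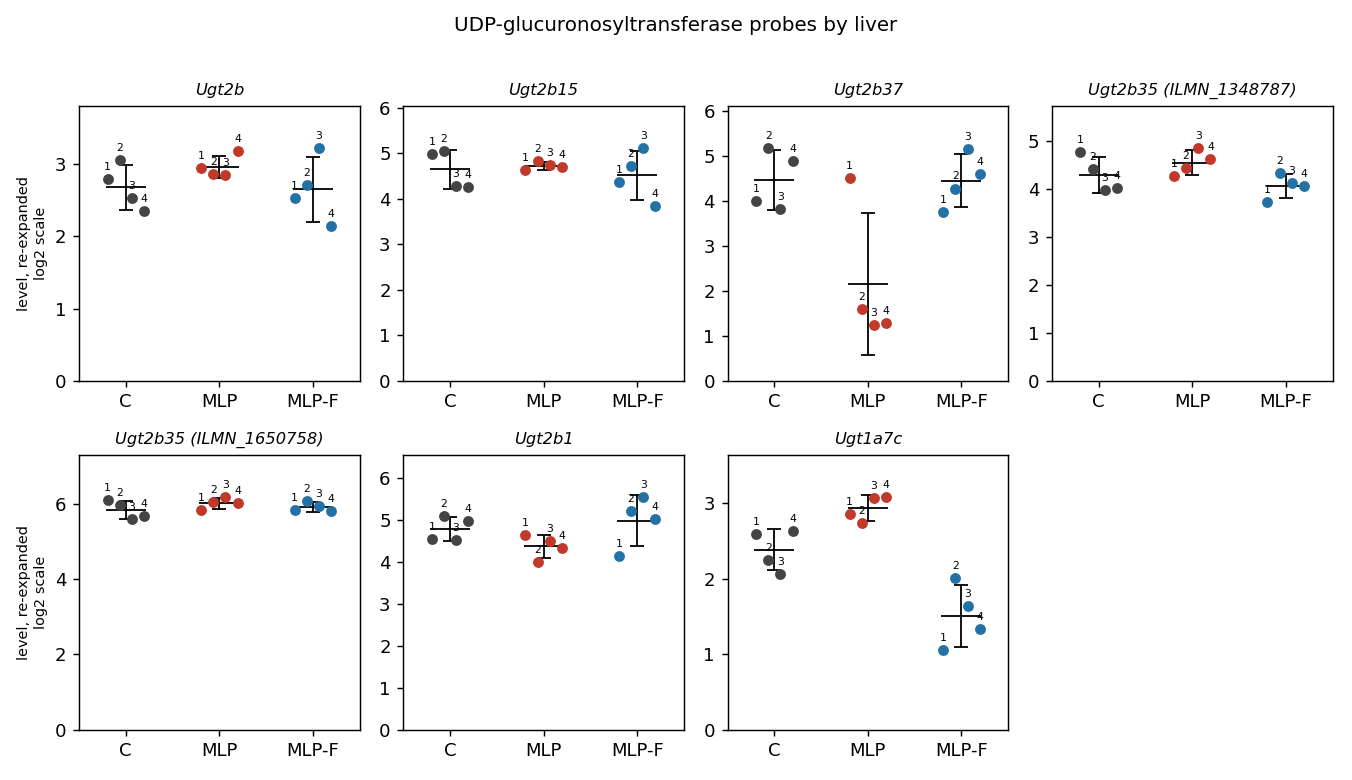
Level of the 7 brighter UGT probes in the 12 livers, on the re-expanded log2 scale; points are single livers numbered by replicate, and bars give the mean and SD of each group (n = 4). The MLP values of Ugt2b37 split into 1 liver at 4.50 and 3 livers between 1.24 and 1.58, and the 3 groups of Ugt1a7c do not overlap.

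Part of the start region is shown for Ugt2b37 and for Ugt2b15 of the same cluster, because the 2 windows were 84.4% identical while the levels of the 2 genes parted in MLP replicates 2, 3 and 4. The stretches are chr14:21172019-21172118 and chr14:21122737-21122836 (GRCr8, plus strand), and capitals mark the C/EBP core, here on the opposite strand.
Ugt2b37: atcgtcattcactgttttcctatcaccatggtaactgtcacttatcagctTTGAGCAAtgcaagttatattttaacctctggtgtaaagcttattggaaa
Ugt2b15: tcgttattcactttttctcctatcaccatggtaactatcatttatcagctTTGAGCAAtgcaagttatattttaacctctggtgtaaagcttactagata

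Sult2a6, a hydroxysteroid sulphotransferase of the family that sulphates dehydroepiandrosterone and bile acids, was lower in MLP than in both other groups. Its levels were 3.13, 3.57, 3.40 and 3.02 in C, 2.48, 2.72, 2.37 and 2.69 in MLP, and 3.37, 3.01, 3.32 and 3.38 in MLP-F. Every MLP liver lay below every other liver, and C and MLP-F overlapped. The mean fell from 3.28 ± 0.25 in C to 2.57 ± 0.17 in MLP, a difference of -0.71 (SE 0.13, adjusted p = 0.0121 by limma). The difference between MLP and MLP-F, with a mean of 3.27 ± 0.17, was -0.70 (SE 0.13, adjusted p = 0.00981). MLP-F and C differed by -0.01 (95% confidence interval -0.29 to 0.27, adjusted p = 0.983). Both calls held in every fit that left out 1 liver, with adjusted p up to 0.0397 and 0.0328. Without C replicates 1 and 4 the difference from C was -0.92 (adjusted p = 0.0196).

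The 110 bases before the start site of Sult2a6, chr1:84097809-84097918 (GRCr8, minus strand), are shown because it was the only conjugating enzyme called in the same direction against both groups with every liver left out in turn. Capitals mark the letters GTTAAT, the core of the site bound by the liver factor HNF1, and the TATA box.
Sult2a6: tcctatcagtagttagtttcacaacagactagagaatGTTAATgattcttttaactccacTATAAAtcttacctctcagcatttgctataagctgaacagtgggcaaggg

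GTTAAT was found in the windows of Sult2a6, Sult2a2 and Gsta3, 9.09% of the 33 windows, against 6.46% of all windows. The window of Sult2a2, a relative on the same chromosome, was 83.3% identical to that of Sult2a6. The probe of Sult2a2 was dim, with values from 0.09 to 0.23, and its difference between MLP and C was 0.011 (adjusted p = 0.930).

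The other sulphotransferase probes were not called. Sult1b1, which sulphates thyroid hormones, had levels of 1.76, 2.08, 1.35 and 1.35 in C, 1.81, 2.06, 1.91 and 1.92 in MLP, and 1.06, 2.08, 1.38 and 1.07 in MLP-F. The MLP livers lay close together and the others were spread around them, with a difference of 0.53 between MLP and MLP-F (SE 0.22, adjusted p = 0.214 by limma). Without MLP-F replicate 2, at 2.08, that difference was 0.75 (adjusted p = 0.0205). Sult1c3 had levels of 0.24, 0.19, 0.20 and 0.20 in C, 0.62, 0.39, 0.52 and 0.32 in MLP, and 0.17, 0.20, 0.37 and 0.25 in MLP-F. Its MLP values lay above all C values, and the difference of 0.25 (SE 0.065) came close to the threshold (adjusted p = 0.0527). It was called without MLP replicate 4 (0.30, adjusted p = 0.0370) or MLP-F replicate 3 (0.25, adjusted p = 0.0422), and without MLP replicate 4 the difference from MLP-F was called as well (0.26, adjusted p = 0.0463). Sult1c2, Sult2b1 and Sult5a1 had group means from 0.14 to 0.21 and differences from -0.057 to -0.0035.

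**Figure D4:**
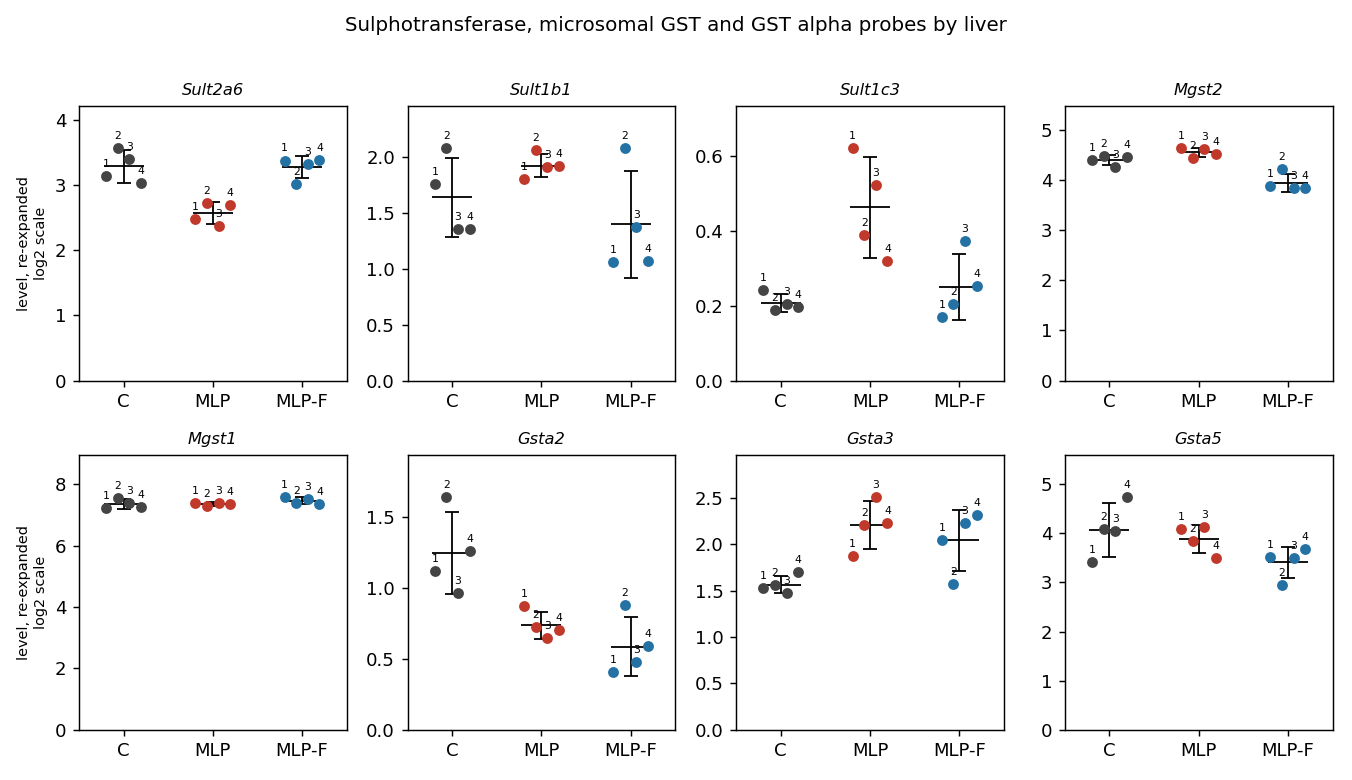
Level of 3 SULT, 2 MGST and 3 GST alpha probes in the 12 livers, on the re-expanded log2 scale; points are single livers numbered by replicate, and bars give the mean and SD of each group (n = 4). Sult2a6 lies between 2.37 and 2.72 in MLP, below all other livers, Mgst2 lies lowest in MLP-F and Gsta2 lies highest in C.

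GST alpha genes, whose enzymes conjugate lipid peroxidation products and bind bilirubin and steroids, did not move together against C. Of 4 tested probes only Gsta3 was called, and only in MLP vs C. Between MLP and MLP-F all 4 differences lay above 0, without a call. In the mouse Gsta3 conjugates the epoxide of aflatoxin. Its levels were 1.52, 1.56, 1.48 and 1.70 in C, 1.87, 2.21, 2.51 and 2.23 in MLP, and 2.04, 1.57, 2.23 and 2.32 in MLP-F. All MLP livers lay above all C livers, and MLP-F replicate 2 lay among the C livers while the other MLP-F livers lay among those of MLP. The difference between MLP and C was 0.64 (SE 0.16, adjusted p = 0.0478 by limma), at the edge of the threshold. It was called in 3 of the 12 fits that left out 1 liver, those without MLP replicate 1 or MLP-F replicate 2 or 4, and lost in the other 9, with adjusted p from 0.0519 to 0.121 and differences from 0.54 to 0.69. It was also lost without C replicates 1 and 4 together (0.69, adjusted p = 0.167). MLP-F and C differed by 0.48 (adjusted p = 0.190), and by 0.63 without MLP-F replicate 2 (adjusted p = 0.0207).

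Gsta2, chosen after its values were seen because neither diet group overlapped with C, had levels of 1.12, 1.64, 0.96 and 1.26 in C, 0.87, 0.72, 0.64 and 0.70 in MLP, and 0.40, 0.88, 0.47 and 0.59 in MLP-F. The C livers lay above all 8 others. The difference was -0.51 for MLP (SE 0.14, adjusted p = 0.0637 by limma) and -0.66 for MLP-F (SE 0.14, adjusted p = 0.0717), and neither passed the threshold. Both did without MLP-F replicate 2 (adjusted p = 0.0404 and 0.0122), and the difference for MLP also did without C replicate 3 (-0.61, adjusted p = 0.0412). Gsta2 is a major GST of rat liver, once called ligandin for its binding of bilirubin. Gsta2 and Gsta3 stood on opposite sides of C in both diet groups, and only the Gsta3 difference in MLP was a call.

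Gsta5, which in the rat conjugates aflatoxin epoxide, had levels of 3.41, 4.09, 4.05 and 4.75 in C, 4.09, 3.83, 4.13 and 3.50 in MLP, and 3.52, 2.96, 3.50 and 3.68 in MLP-F. The groups overlapped, and MLP-F differed from C by -0.66 (95% confidence interval -1.22 to -0.10, adjusted p = 0.244) and MLP from C by -0.19 (-0.75 to 0.37, adjusted p = 0.800). Gsta4, which acts on the lipid peroxidation product hydroxynonenal, had means of 0.48, 0.45 and 0.32 in C, MLP and MLP-F and was not called. Capitals mark the antioxidant response element core in the 60 bases before the first listed start of Gsta3 (chr9:31154929-31154988, GRCr8, plus strand). They also mark it in a stretch of the same length before that of Gstp1 (chr1:210769733-210769792, minus strand). Both stretches are shown beside that of Gstm7 for a comparison. Of 4 genes with this match, Gstm7 and Gsta3 were called in MLP vs C and Gstp1 and Gstm5 were not. A link between the match and the calls was not tested, and both calls were lost without C replicates 1 and 4.
Gsta3: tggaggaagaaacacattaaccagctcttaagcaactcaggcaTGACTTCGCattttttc
Gstp1: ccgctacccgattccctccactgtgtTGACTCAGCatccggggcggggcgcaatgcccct

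Gstp1, the placental form that is low in adult rat hepatocytes and serves as a marker of preneoplastic foci, had 3 probes. The brightest had levels of 2.92, 2.40, 2.03 and 2.41 in C, 2.34, 2.20, 2.59 and 2.41 in MLP, and 1.66, 2.30, 1.89 and 1.90 in MLP-F. The groups overlapped, with C replicate 1, which held keratinocyte and smooth muscle transcripts, at the top. The difference was -0.053 between MLP and C (adjusted p = 0.930), -0.50 between MLP-F and C (SE 0.18, adjusted p = 0.202) and 0.45 between MLP and MLP-F (adjusted p = 0.175), the last called without C replicates 1 and 4 and MLP-F replicate 2 (0.57, adjusted p = 0.0189). A second probe was dim (0.19 to 0.35) and differed by at most 0.083, in MLP-F vs C, on the other side of 0 from the brighter probe. The third probe was not tested.

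The theta, omega and kappa classes gave no call. Gsto1, which reduces dehydroascorbate, came closest, with levels of 4.57, 3.96, 4.34 and 4.44 in C, 4.88, 4.98, 4.74 and 5.17 in MLP, and 4.57, 4.55, 5.08 and 4.38 in MLP-F. The MLP livers lay above all C livers, with a difference of 0.62 (SE 0.16, adjusted p = 0.0581 by limma) that was called without MLP-F replicate 3 (adjusted p = 0.0224). Gstk1, found in mitochondria and peroxisomes, had levels of 2.72, 3.27, 3.41 and 3.70 in C, 3.97, 3.95, 3.51 and 3.67 in MLP, and 3.96, 3.44, 3.82 and 3.57 in MLP-F, with differences from C of 0.50 (adjusted p = 0.205) and 0.42 (adjusted p = 0.340) for MLP and MLP-F. Gstt2 had means of 3.38 ± 0.19, 3.52 ± 0.25 and 3.49 ± 0.18 in C, MLP and MLP-F, which differed by at most 0.14. Gstt1, Gstt3 and Gsto2 had means up to 1.02 and differences from -0.082 to 0.19.

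MLP-F replicate 2 moved the count of calls in MLP-F vs C more than any other single liver. It was the highest or the lowest of its group for 21 of the 38 tested probes, where the other 11 livers were so for 12 to 26. Without MLP-F replicate 2, 6 conjugating enzyme probes were called in MLP-F vs C in place of 1, when 5.97% of all probes were called. Gstm2, Gstm4, Mgst2, Ugt1a7c and Gsta2 were then lower in MLP-F and Gsta3 was higher. Without MLP-F replicate 3 the count was 0, when 1 of all 15753 probes was called (0.00635%), and without C replicates 1 and 4 together it was 0, when 14 of all probes were called (0.0889%).

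The partners of these enzymes were taken as 6 fixed lists of 5 to 13 tested probes. In MLP vs C each list gave 1 to 3 calls, when 4.35% of all probes were called. In MLP vs MLP-F each gave 0 to 3 calls, when 6.58% of all probes were called. In MLP-F vs C each gave 0, when 0.482% of all probes were called. There 0 to 7 probes of a list had an unadjusted p under 0.05. For sulphation, 2 of 9 probes of sulphate donor supply and desulphation were higher in MLP than in C and the same 2 higher than in MLP-F. Papss2, which makes the sulphate donor PAPS, had levels of 0.83, 1.15, 1.06 and 1.13 in C, 1.77, 1.71, 1.55 and 1.61 in MLP, and 1.34, 1.11, 1.49 and 1.24 in MLP-F. The MLP livers lay above all others, by 0.62 against C (SE 0.092, adjusted p = 0.00595 by limma) and 0.37 against MLP-F (SE 0.092, adjusted p = 0.0359). The first call held in all 12 fits leaving out 1 liver, and without C replicates 1 and 4 (0.56, adjusted p = 0.0389), and the second in 5 of them. Arsa, a lysosomal sulphatase, was higher in MLP by 0.27 (adjusted p = 0.0437, called in 5 of 12 such fits) against C and by 0.39 against MLP-F (adjusted p = 0.00708, called in all). The difference of Arsa from C was 0.26 without C replicates 1 and 4 and was not called (adjusted p = 0.219).

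In the list of glutathione synthesis and recycling, 1 of 13 probes was called in MLP vs C and 3 in MLP vs MLP-F. Gclc, the catalytic subunit of the enzyme that limits glutathione synthesis, had levels of 4.40, 4.55, 4.27 and 4.35 in C, 3.80, 3.73, 3.80 and 3.72 in MLP, and 4.14, 4.29, 3.51 and 4.05 in MLP-F. MLP fell below C by 0.63 (difference -0.63, SE 0.14, adjusted p = 0.0256 by limma), a call kept in 6 of 12 fits leaving out 1 liver and lost without C replicates 1 and 4 (-0.65, adjusted p = 0.128). Against MLP-F, Gsr, which regenerates reduced glutathione, and Ggct, of glutathione breakdown, were higher in MLP, by 0.54 (adjusted p = 0.0330) and 0.50 (adjusted p = 0.00952), and Hagh, of the glyoxalase system, differed by -0.39 (adjusted p = 0.0235). The call of Ggct held in all 12 fits leaving out 1 liver, and those of Gsr and Hagh were lost in 6 and 5 of them.

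NRF2 targets outside the GST family moved both ways. Of 9 probes, 1 was higher and 2 were lower in MLP than in C, and 2 were higher in MLP than in MLP-F. Nqo1, a quinone reductase and standard NRF2 target, had levels of 2.03, 1.99, 2.12 and 2.94 in C, 3.94, 3.34, 2.78 and 3.17 in MLP, and 2.36, 1.94, 2.58 and 2.12 in MLP-F. MLP exceeded C by 1.04 (SE 0.26, adjusted p = 0.0496 by limma) and MLP-F by 1.06 (adjusted p = 0.0357), and C replicate 4 reached into the MLP range. The call against C was lost in 9 of the 12 fits leaving out 1 liver (adjusted p up to 0.121). That against MLP-F was lost in 6 of them (adjusted p up to 0.0930). Gclc, which is on this list too, and Prdx1, a peroxiredoxin, were lower in MLP than in C, Prdx1 by 0.41 (difference -0.41, adjusted p = 0.0489, lost in 9 of 12 such fits). Ephx1, the microsomal epoxide hydrolase, was higher in MLP than in MLP-F by 0.64 (adjusted p = 0.0333, lost in 6 of 12 such fits). Without C replicates 1 and 4, Nqo1 was no longer called against C (1.25, adjusted p = 0.0646) and Prdx1 was (-0.55, adjusted p = 0.0348).

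Among exporters, 1 of 5 probes was called. Abcc3, which carries glucuronides from the hepatocyte into blood, had levels of 2.34, 2.28, 2.17 and 2.37 in C, 3.24, 3.41, 3.65 and 3.63 in MLP, and 2.59, 2.09, 3.06 and 2.50 in MLP-F. Every MLP liver lay above every other liver, by 1.19 against C (SE 0.17, adjusted p = 0.00439 by limma) and 0.92 against MLP-F (SE 0.17, adjusted p = 0.00918), and both calls held with each liver left out in turn. Without C replicates 1 and 4 the difference from C was 1.26 (adjusted p = 0.0348). Of 12 probes of regulators, Nr1i2, the xenobiotic receptor PXR, was higher in MLP than in C by 0.80 (SE 0.14, adjusted p = 0.0110) and Por, the electron donor of cytochromes P450, by 0.74 (SE 0.14, adjusted p = 0.0146). These differences were 0.86 and 0.64 without C replicates 1 and 4 and were not called (adjusted p = 0.0515 and 0.128). In the supply of UDP-glucuronate, 1 of 6 probes was called, Gusb, a lysosomal enzyme that removes glucuronic acid, lower in MLP than in C (-0.19, SE 0.043, adjusted p = 0.0367, lost in 6 of 12 fits leaving out 1 liver). The difference of Gusb was -0.16 without C replicates 1 and 4 and was not called (adjusted p = 0.235).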

How the data were processed

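Total RNA of 12 rat livers was hybridised to Illumina RatRef-12 arrays. Per the study's methods, the authors summarised the arrays with the beadarray and limma packages and applied quantile normalization; background correction and the rule for low quality probes are not given in the sources used here. In the table used, the deposited log2 values ran from 4.00 to 4.63 and were taken as log2 of 16 plus a value already on a log2 scale. They were re-expanded as 2 to the power v minus 16 (0.047 to 8.82), and sample medians were then 0.226 to 0.228. A second deposited table, with 12 columns named by chip position that no label matches, was not used. The number of arrays limits precision.

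Symbols came from the platform annotation (13778 probes with 1 symbol, 8727 with none). A filter on the mean at the 30th percentile (0.158) left 15753 probes. Models were fitted in R 4.3.3 with lmFit, contrasts.fit and eBayes of limma 3.58.1 (9 residual and 2.26 prior degrees of freedom), two-sided, with Benjamini-Hochberg adjustment, and the fit was tested on simulated data. Intervals are 95% and use 11.3 degrees of freedom.

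The enzymes, lists and settings were chosen with earlier results of these data known. A rule took each called enzyme probe, the brightest probe of each family and the largest difference of each class in each comparison. Values in every liver are given for these, except for Mgst1, given by its range, and Gstt2 and Ugt2b35, given by their means. Gsta2, Sult1c3, Ugt2b1 and Ugt2b15 did not meet the rule and were added with their values known. Genes of other lists are named where called. Alternatives covered scale, filter, normalization, array weights, samples in the fit, the replicate number as a block, the variance prior and left-out libraries. Replicate numbers did not pair the samples. Cell type marker lists were hepatocyte, cholangiocyte (medians 0.40 to 1.71), erythroid, macrophage, intestine (0.19 to 0.55), skeletal muscle, lung, keratinocyte, smooth muscle, and stellate cell and fibroblast. Start regions are those of RefSeq, assembly GRCr8, 27457 windows of 250 bases, the first listed for each gene.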

Additional observations from a re-analysis of the deposited data

Results flagged for a closer look

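Within each group of 4 livers, a liver was looked for that stood far from the other 3, by the gap to its nearest neighbour over the range of the group. The search covered 63 groups, those of the tested probes that the rule took and of Gsta2 and Sult1c3. Chance alone gives about 1 in 20 such groups, and 2 were found. Ugt2b37 stood at 4.504 in MLP replicate 1, against 1.24 to 1.584 in the other MLP livers. Mgst2 stood at 4.218 in MLP-F replicate 2, against 3.836 to 3.876 in the other MLP-F livers. Both livers kept their place in the tests of the report, which gives the differences without each of them.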

How the results depend on the processing

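The number of conjugating enzyme probes called in MLP vs C was 3 of 38, when 4.35% of all probes were called. It became 6 of 30 tested with the filter at the 50th percentile (7.48% of all), 6 with array weights (5.9%) or with an intensity trend and robust prior (4.74%), and 1 without C replicates 1 and 4 (1.34%). In MLP-F vs C it was 1 (0.482%) and became 3 of 30 with the filter at the 50th percentile (0.835%), 2 with array weights (0.463%), 0 with only the 2 groups fitted (0.0381%), 3 with the trend and robust prior (0.717%), 0 without C replicates 1 and 4 (0.0889%), and 2 without these and MLP-F replicate 2 (1.44%). In MLP vs MLP-F it was 7 (6.58%) and ran from 6 to 9 over all settings, while 3.52% to 10.8% of all probes were called. Leaving out 1 liver at a time gave 1 to 4 in MLP vs C (2.13% to 5.17% of all). The count was 1 without C replicate 1, C replicate 2 or MLP replicate 3. In MLP-F vs C such fits gave 0 to 6 (0.00635% to 5.97% of all), with 6 without MLP-F replicate 2 and 0 without MLP-F replicate 3. In MLP vs MLP-F they gave 6 to 8 (3.93% to 8.6% of all). For the tested probes that the rule took and for Gsta2 and Sult1c3, 1316 of the single results under an alternative stayed on their side of the threshold. Of the others, 36 gained and 34 lost a call, and 0 called differences changed sign. The cause was not tested.

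Samples with the same replicate number deviated together with r from -0.217 to 0.143, and 5 of 12 samples matched their own number best, so the numbers did not pair the samples. With the replicate number as a block, 3 conjugating enzyme probes were called in MLP vs C (3.57% of all probes). The count was 1 in MLP-F vs C (0.184% of all) and 6 in the contrast of MLP with MLP-F (5.79% of all). Gsta2 was then called in MLP vs C and Gsta3 was not, and the call of Gstm4 in MLP vs MLP-F was lost. Among the partner genes, the block also ended the calls of Nqo1 in MLP vs C (adjusted p = 0.0905) and MLP vs MLP-F (0.0673), of Prdx1 (0.0642) and Gusb (0.0687) in MLP vs C, and of Gsr (0.0795) and Papss2 (0.0875) in MLP vs MLP-F. Probes near the background are limited by their signal, since the scale compresses their differences.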
